A study of Mus musculus with 8 samples.

Results

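The genes examined here encode the machinery that loads peptides onto MHC class II molecules and shows them to CD4 T cells. They were taken by symbol from a fixed list (*H2-Aa*, *H2-Ab1*, *H2-Eb1*, *H2-DMa*, *H2-DMb1*, *H2-DMb2*, *H2-Oa*, *H2-Ob*, *Cd74* and *Ciita*), and all 10 were found among the 46078 gene identifiers of the count tables. Messenger RNA was sequenced from the infarcts of 8 male wild-type C57BL/6J mice aged 18 months. All 8 mice underwent DH stroke, a permanent closure of the distal middle cerebral artery followed by hypoxia. Vehicle mice (phosphate-buffered saline, n = 4) and HPβCD mice (4 g/kg of 2-hydroxypropyl-β-cyclodextrin, a cyclic sugar that holds lipids in its cavity, n = 4) were injected under the skin 3 times per week for 6 weeks, starting 1 week after stroke, and infarcts were collected at 7 weeks. Infarcts were cut out by eye, so each piece may hold a different share of surrounding brain. The question was whether the class II genes follow B cell content or macrophage content across these libraries.

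A class II molecule is a pair of an α and a β chain, which are assembled with the invariant chain CD74 and sent to the endolysosome. There CD74 is degraded by cathepsins, and the nonclassical molecule H2-DM exchanges its last fragment for antigen peptides. A second nonclassical molecule, H2-DO, binds H2-DM and inhibits it. H2-DO is known mainly from B cells, and to a lesser degree from some dendritic cells, whereas the classical chains, CD74 and H2-DM are also made by activated microglia, macrophages and dendritic cells. The coactivator CIITA switches these genes on as a group, by docking on proteins bound to short X and Y boxes in their promoters.

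The promoter stretches are shown first because X and Y boxes are where CIITA acts, and the genes described below differed in their pattern between libraries. RefSeq promoter sequences (build GRCm38.p6, 250 bases before to 50 after the start) were at hand for 7 of the 10 genes, and none was used for *H2-Ab1*, *Cd74* or *Ciita*. Each line gives 50 bases and then the Y core, 5′ to 3′ on the gene's strand, and capitals mark the X core AACNNATG and the Y core TGATTGG. Both cores were written down after looking at these promoters, so their presence in the genes is a description.

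H2-Ob: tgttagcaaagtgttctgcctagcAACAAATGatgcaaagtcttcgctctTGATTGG
H2-DMb2: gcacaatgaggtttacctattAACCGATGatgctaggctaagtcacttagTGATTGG
H2-Eb1: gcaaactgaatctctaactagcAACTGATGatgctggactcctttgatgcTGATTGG
H2-Eb2: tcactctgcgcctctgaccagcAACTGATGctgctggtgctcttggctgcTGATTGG
H2-Oa: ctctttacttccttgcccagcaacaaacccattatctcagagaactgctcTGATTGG
H2-Aa: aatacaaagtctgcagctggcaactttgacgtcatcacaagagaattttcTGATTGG

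The stretches lie at chr17:34238796-34238852 (plus strand, *H2-Ob*), chr17:34145107-34145163 (plus, *H2-DMb2*), chr17:34305756-34305812 (plus, *H2-Eb1*), chr17:34325523-34325579 (plus, *H2-Eb2*, a further class II β gene outside the list), chr17:34092284-34092340 (plus, *H2-Oa*) and chr17:34287867-34287923 (minus, *H2-Aa*). Searched on either strand of 32851 promoters of the same length, the Y core was present in 7.82% and the X core in 8.86%. An X core followed by a Y core, with 10 to 40 bases between their first letters, was present in 16 promoters (0.0487%). These 16 included 4 of the listed genes (*H2-Ob*, *H2-DMb2*, *H2-DMb1* and *H2-Eb1*) and *H2-Eb2*. The stretch of *H2-DMb1* overlaps a GENCODE exon and is not printed. That of *H2-DMb2* lies before the RefSeq start but inside the GENCODE bounds of the gene (chr17:34143307-34151555). In *H2-Ob* the first letters of the cores were 26 bases apart, in *H2-Eb1* and *H2-Eb2* 28, and in *H2-DMb1* and *H2-DMb2* 29. *H2-Oa* and *H2-Aa* held only the Y core and *H2-DMa* held neither, which says only that these letters were not in this window. Whether these cores go with the pattern of a gene across libraries was not tested.

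Libraries held 16.6 M to 32.9 M gene counts. Values are given as CPM, counts scaled to a common library total after TMM scaling, in the order of animals 1 to 4. In neuron markers, vehicle animals 3 and 1 stood apart from the rest. The summed level of the neuron list was 6009 and 952 CPM in these 2 libraries and 7.78 to 81.7 CPM in the other 6. The 10 class II genes together made up 0.22% of gene counts in vehicle animal 3, the lowest share, and 0.363% to 0.690% in the other 7 libraries. Because the measurement is of bulk tissue, fewer cells of a type and less RNA per cell cannot be told apart.

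None of the 10 genes passed the test between the groups (edgeR's quasi-likelihood test, Benjamini-Hochberg adjusted p under 0.05), while 1.95% of the 14736 tested genes did. At an unadjusted p under 0.05 there were 2, *H2-Ob* and *H2-DMb2*, both with lower means in HPβCD mice. The other 8 had log2 fold changes (HPβCD over vehicle) between -0.96 for *H2-Oa* and 0.52 for *H2-Ab1*. The median of the 10 was -0.12, and the median of all tested genes was -0.05. In no listed gene were the groups free of overlap in either direction. Of the 14736 tested genes, 1183 (8.03%) had all 4 HPβCD values under the vehicle values, and 1293 had all 4 above them.

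**Figure D1:**
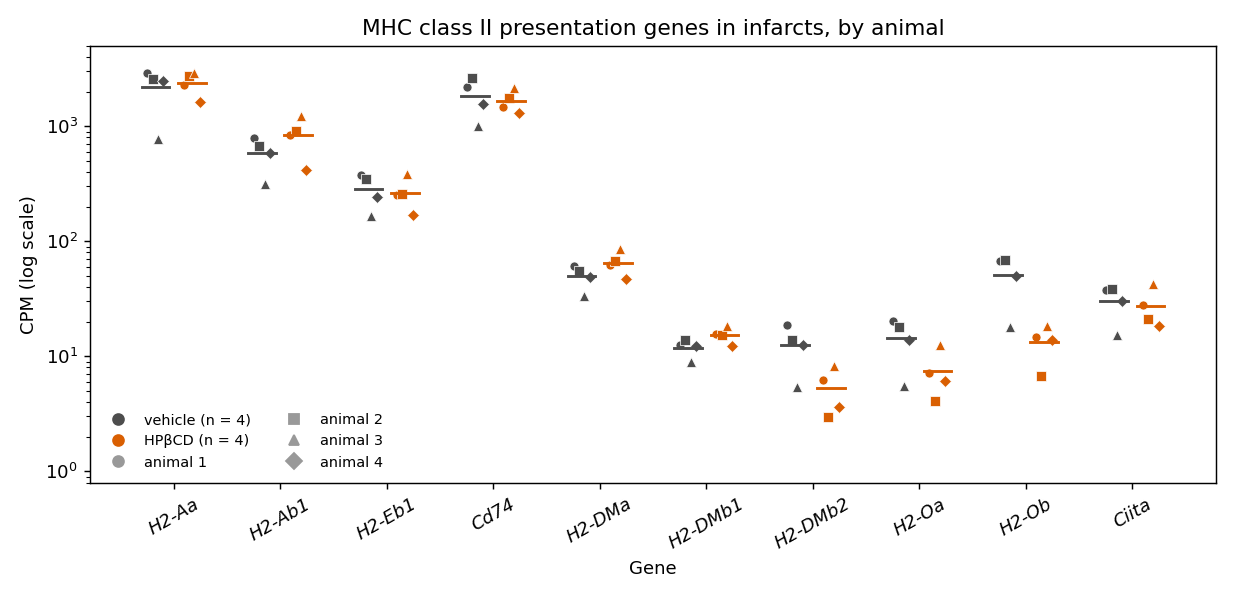
CPM of the 10 class II genes in each infarct on a log scale, with animals as symbols, groups as colors and a line at each group mean (n = 4). In vehicle mice, animal 3 is the lowest of its group in every gene, and in *H2-Ob*, *H2-DMb2* and *H2-Oa* all 4 HPβCD animals sit under vehicle animals 1, 2 and 4.

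The classical chains were abundant in both groups. *H2-Aa* (ENSMUSG00000036594, chr17:34282744-34287823, minus strand), the I-A α chain, was measured at 2902, 2570.45, 777 and 2500.1 CPM in vehicle mice and at 2304, 2747, 2904 and 1638 CPM in HPβCD mice. *H2-Ab1* (ENSMUSG00000073421, chr17:34257689-34269419, plus strand), the I-A β chain that pairs with it, was at 787, 676, 313 and 581 CPM in vehicle and at 848, 903, 1221 and 417 CPM in HPβCD mice. Vehicle animal 3 was the low one in both genes, and the groups overlapped. The log2 fold changes were 0.13 ± 0.39 (SE) for *H2-Aa* and 0.52 ± 0.37 for *H2-Ab1*, with adjusted p = 0.857 and 0.391 (edgeR, n = 4 per group).

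*H2-Eb1* (ENSMUSG00000060586, chr17:34305867-34316674, plus strand) is the I-E β chain. Its α partner is known to be defective in C57BL/6 mice, and that locus, *H2-Ea-ps*, gave 0 to 3 counts in every library. *H2-Eb1* itself was transcribed, at 378, 349, 165 and 243 CPM in vehicle and at 250.4, 255, 385 and 169.8 CPM in HPβCD mice. Vehicle animal 3 and HPβCD animal 4 were the lowest, and the groups covered nearly the same range. Its log2 fold change was -0.10 ± 0.31 (adjusted p = 0.869, edgeR, n = 4 per group).

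*Cd74* (ENSMUSG00000024610, on chromosome 18), the invariant chain that guides class II molecules to the endolysosome, was at 2196, 2616, 1009.96 and 1553 CPM in vehicle mice. In HPβCD mice it was at 1477, 1769.6, 2135 and 1308 CPM. The groups overlapped throughout, with a log2 fold change of -0.14 ± 0.31 (adjusted p = 0.807, edgeR, n = 4 per group). Per kilobase of exon, *Cd74* had the highest level of the 10 genes in both groups, at 1098 ± 421 CPM per kilobase in vehicle and 996 ± 216 in HPβCD mice (SD, n = 4).

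The peptide editor H2-DM is made of *H2-DMa* and 1 of a pair of neighboring β genes. *H2-DMa* (ENSMUSG00000037649, chr17:34119541-34139101, plus strand) was at 61.2, 55.0, 33.4 and 49.4 CPM in vehicle and at 61.8, 67.2, 85.1 and 46.7 CPM in HPβCD mice. *H2-DMb1* (ENSMUSG00000079547, chr17:34153072-34160230, plus strand) was at 12.5, 13.9, 8.96 and 12.3 CPM in vehicle and at 15.6, 15.4, 18.3 and 12.3 CPM in HPβCD mice. Both had slightly higher means in HPβCD mice, and in both the groups overlapped. Their log2 fold changes were 0.39 ± 0.23 and 0.37 ± 0.19, with adjusted p = 0.311 and 0.238 (edgeR, n = 4 per group).

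*H2-DMb2* (ENSMUSG00000037548, chr17:34143307-34151555, plus strand), the second β gene, did not share this pattern. It was at 18.8, 13.9, 5.39 and 12.5 CPM in vehicle and at 6.21, 2.94, 8.26 and 3.66 CPM in HPβCD mice. Vehicle animals 1, 2 and 4 were above all HPβCD animals, and vehicle animal 3 lay within their range. The log2 fold change was -1.26 ± 0.43 (adjusted p = 0.108, edgeR, n = 4 per group). These values rest on 48 to 486 counts per library, and 16.2% of the 75-base windows of *H2-DMb2* transcripts were also found in other genes, mostly *H2-DMb1*, so reads of the pair are partly interchangeable or lost to the counting.

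The inhibitor H2-DO is a pair of *H2-Oa* and *H2-Ob*. *H2-Ob* (ENSMUSG00000041538, chr17:34238903-34254414, plus strand), its β chain, was at 67.7, 68.9, 17.9 and 49.8 CPM in vehicle and at 14.8, 6.74, 18.4 and 13.8 CPM in HPβCD mice. *H2-Oa* (ENSMUSG00000024334, chr17:34092340-34095234, plus strand), the α chain, was at 20.5, 18.1, 5.51 and 14.0 CPM in vehicle and at 7.12, 4.11, 12.6 and 6.05 CPM in HPβCD mice. As with *H2-DMb2*, vehicle animals 1, 2 and 4 were above all HPβCD animals in both genes, and vehicle animal 3 fell among the HPβCD values.

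For *H2-Ob* the means were 51.1 ± 23.8 CPM in vehicle and 13.4 ± 4.89 CPM in HPβCD mice (SD, n = 4). Its log2 fold change was -1.92 ± 0.45, the furthest from 0 of the 10 genes, with an unadjusted p = 0.0025 and an adjusted p = 0.0624 (edgeR, n = 4 per group). The log2 fold change of *H2-Oa* was -0.96 ± 0.45 (adjusted p = 0.203). No 75-base window of *H2-Ob* was shared with another gene. In contrast, 22.8% of the exon bases of *H2-Oa* lie opposite exons of *BC051537*, and the strand option of the counting was not stated. Of the exon bases of *H2-DMa*, 10.4% lie opposite exons of *Brd2*, and of those of *Ciita*, 3.45% lie opposite exons of *Dexi*.

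Whether *H2-Ob* and *H2-DMb2* were called depended on the test and on vehicle animal 3. With DESeq2, which called 17.5% of the genes it tested, both were called lower in HPβCD mice (adjusted p = 0.000806 and 0.0368). Without vehicle animal 3, edgeR called both (log2 fold changes -2.20 and -1.51, adjusted p = 0.0196 and 0.0499), at a background of 4.22% of tested genes. Without vehicle animals 1 and 3 together, it called *H2-Ob* alone of the 10 genes (-2.12, adjusted p = 0.034), at a background of 1.34%. With the neuron score as a covariate, the log2 fold change of *H2-Ob* was -2.11 (adjusted p = 0.112).

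*Ciita* (ENSMUSG00000022504, chr16:10480059-10528418, plus strand), the regulator, was at 38.0, 38.6, 15.3 and 30.1 CPM in vehicle and at 28.1, 21.1, 42.3 and 18.4 CPM in HPβCD mice. The lowest value was again in vehicle animal 3, and the highest was in HPβCD animal 3. The log2 fold change was -0.15 ± 0.35 (adjusted p = 0.817, edgeR, n = 4 per group).

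Per kilobase of exon, the order of levels in vehicle mice was *Cd74*, *H2-Aa*, *H2-Ab1*, *H2-Eb1*, *H2-DMa*, *H2-Oa*, *H2-Ob*, *H2-DMb2*, *H2-DMb1* and *Ciita*. *H2-Eb1*, the last of the abundant genes, was at 146 ± 50.4 CPM per kilobase, and *H2-DMa*, the next, was at 14.4 ± 3.47. *H2-DMa* was followed by *H2-Oa* (10.3 ± 4.68), *H2-Ob* (9.49 ± 4.43), *H2-DMb2* (7.24 ± 3.17) and *H2-DMb1* (7.08 ± 1.24), where the SD is the spread between animals. Within every vehicle animal *H2-Oa* was above *H2-Ob*, and *H2-Ob* above *H2-DMb2*. *H2-DMb1* was above *H2-DMb2* in vehicle animals 2, 3 and 4 and below it in vehicle animal 1. In HPβCD mice *H2-Ob* was last, at 2.5 ± 0.91, and *H2-DMb1* was sixth, at 9.16 ± 1.45. The first 5 positions were held by the genes listed first for vehicle, in that order.

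Ratios between members within a library do not depend on how the library is scaled, and 8 of them were computed after the values above had been seen, so they are descriptions with no test. In vehicle mice there were 1.11, 1.25, 0.535 and 1.01 *H2-Ob* counts per *H2-DMa* count, and in HPβCD mice 0.24, 0.10, 0.216 and 0.296. Transcripts of *H2-Ob* were therefore lower relative to those of *H2-DMa* in all 4 HPβCD infarcts, vehicle animal 3 included in the comparison. This is a ratio of RNA in bulk tissue, and protein was not measured here. Of all tested genes, 10.7% had a ratio to *H2-DMa* that was lower in HPβCD mice without overlap, so such a ratio is not rare in these libraries.

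*H2-Oa* over *H2-DMa* behaved alike, at 0.165 to 0.335 in vehicle and 0.0611 to 0.148 in HPβCD mice. For the DM β genes, there were 1.502, 1.01, 0.601 and 1.02 *H2-DMb2* counts per *H2-DMb1* count in vehicle mice, and 0.399, 0.191, 0.452 and 0.297 in HPβCD mice. Their exons are of similar length (1747 and 1681 bases). The 2 β genes were thus about equal in a vehicle infarct (median ratio 1.01), while *H2-DMb1* was the more abundant in every HPβCD infarct (median ratio 0.348). A ratio to *H2-DMb1* that was lower in HPβCD mice without overlap was found for 13.6% of tested genes. The chains of H2-DO also differed from each other. There were 3.24 to 3.80 *H2-Ob* counts per *H2-Oa* count in vehicle and 1.47 to 2.28 in HPβCD mice, without overlap. Relative to *H2-Oa*, 0.584% of tested genes were lower in HPβCD mice without overlap. *H2-Oa* itself had a log2 fold change of -0.96, which leaves fewer genes to lie lower relative to it. This share is thus not comparable with those for *H2-DMa* and *H2-DMb1*, and *H2-Oa* rests on 67 to 632 counts per library.

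Among the classical genes the ratios were closer. *H2-Eb1* over *H2-Ab1* was 0.419 to 0.530 in vehicle and 0.283 to 0.408 in HPβCD mice, and *Ciita* over *H2-Ab1* was 0.0483 to 0.0571 in vehicle and 0.0234 to 0.0442 in HPβCD mice. Neither pair overlapped between the groups, and in both HPβCD animal 4 came closest to the vehicle mice. Relative to *H2-Ab1*, 5.58% of tested genes were lower in HPβCD mice without overlap. The ratio of *Cd74* to *H2-Ab1* (2.67 to 3.87 against 1.74 to 3.14) and that of *H2-Aa* to *H2-Ab1* (2.49 to 4.30 against 2.38 to 3.93) did overlap.

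**Figure D2:**
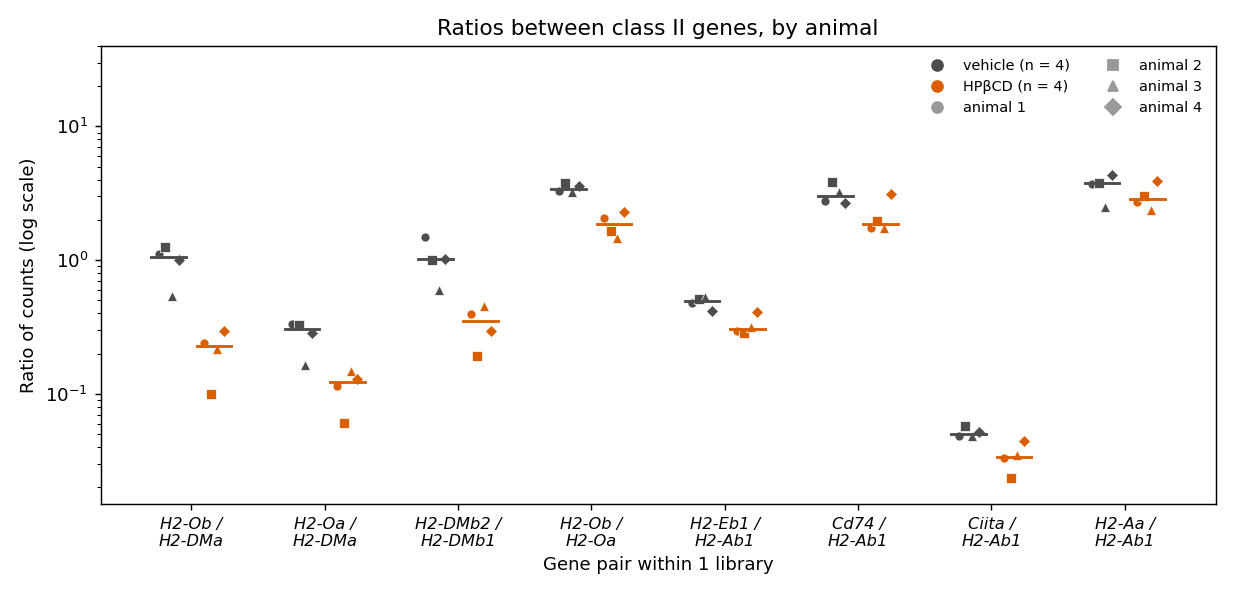
Ratio of counts for 8 pairs of class II genes in each infarct on a log scale, with a line at each group median (n = 4). The vehicle and HPβCD points do not overlap for *H2-Ob* over *H2-DMa*, *H2-Oa* over *H2-DMa*, *H2-DMb2* over *H2-DMb1*, *H2-Ob* over *H2-Oa*, *H2-Eb1* over *H2-Ab1* and *Ciita* over *H2-Ab1*, and they overlap for the other two.

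B cell and macrophage content were estimated from marker lists that hold none of the 10 genes. A score is the mean over the list's genes of log2 CPM centered on each gene's mean. The B cell score (11 genes, among them *Ms4a1* and *Pax5*) was 1.41, 1.54, -0.19 and 0.95 in vehicle and -0.50, -1.65, -0.47 and -1.07 in HPβCD mice. The groups did not overlap, with a difference of -1.85 (two-sided exact permutation of the 4 and 4 animals, p = 0.0286, which is the lowest value possible here, and 0.0929 after adjustment over 13 marker lists). All 11 B cell genes had lower means in HPβCD mice, and 4 of them were called, *Cd79a*, *Cd79b*, *Blk* and *Fcer2a*.

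The macrophage score (9 genes, led by *Lyz2*, *Csf1r* and *Adgre1*) was -0.24, 0.13, -0.49 and 0.05 in vehicle and -0.15, 0.05, 0.54 and 0.10 in HPβCD mice. The groups overlapped (difference 0.28, p = 0.229 by the exact permutation of 4 and 4 animals). None of its genes was called. The dendritic cell score (9 genes, led by *Itgax*, *Zbtb46* and *Clec9a*) differed by 0.17 (exact p = 0.543), and the T cell score by 0.03 (exact p = 0.943). Of the macrophage subtypes, the microglia score differed by -0.47 (exact p = 0.114) and the border macrophage score by 0.17 (exact p = 0.514). The foamy macrophage score (led by *Gpnmb*, *Fabp5* and *Spp1*) was higher by 0.80 in HPβCD mice and did not overlap (exact p = 0.0286, adjusted 0.0929). The fibroblast score moved the same way, by 1.10 (exact p = 0.0286, adjusted 0.0929), and the neuron score differed by -3.80 (exact p = 0.143). The plasma cell score was lower by a difference of -1.36 and did not overlap (exact p = 0.0286, adjusted 0.0929). The oligodendrocyte score differed by -2.80 and the astrocyte score by -1.35 (exact p = 0.0571 for each). The part of these other cells in the class II values was not tested.

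Set against B cell content, *H2-Ob* was nearly constant. Per 1000 summed B cell marker counts there were 108, 99.4, 94.2 and 107 *H2-Ob* counts in vehicle and 83.7, 99.2, 110 and 114 in HPβCD mice. The means were 102 ± 6.39 and 102 ± 13.4 (SD, n = 4), with vehicle animal 3 now beside the other vehicle animals. With the marker counts in place of the library totals in edgeR, its log2 fold change was -0.01 ± 0.68 (adjusted p = 0.993, n = 4 per group), an error that leaves room for sizeable differences in either direction. With *Cd22*, which microglia of old brains also make, added to the marker counts, the value was -0.64 (adjusted p = 0.237).

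*H2-DMb2* and *H2-Oa* were also not called per B cell marker count, but their values ran higher in HPβCD mice. *H2-DMb2* was at 20.1 to 29.9 per 1000 marker counts in vehicle and 30.2 to 49.2 in HPβCD mice (log2 fold change 0.58 ± 0.72, adjusted p = 0.444, edgeR, n = 4 per group). *H2-Oa* was at 26.2 to 32.6 and 40.2 to 74.7 (0.93 ± 0.72, adjusted p = 0.218). The remaining 7 genes were called higher per B cell marker count, with log2 fold changes from 1.74 for *Ciita* to 2.49 for *H2-Ab1*. That share is near the background, since 66.6% of all tested genes were called on this scale. The 3 genes that were not called are those with the 3 most negative log2 fold changes on the CPM scale. Of the 10 genes, 4 were called without vehicle animal 4 and 3 without HPβCD animal 2, where 27.6% and 16.4% of all tested genes were called.

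Set against macrophage content, *H2-Ob* gave 9.12, 5.97, 2.47 and 2.97 counts per 1000 macrophage marker counts in vehicle and 0.881, 0.372, 0.980 and 0.559 in HPβCD mice. The groups did not overlap (log2 fold change -2.88 ± 0.49, adjusted p = 0.0119, edgeR, n = 4 per group). *H2-DMb2* (-2.22) and *H2-Oa* (-1.92) were called lower without overlap, and *Cd74* (-1.10), *Ciita* (-1.08) and *H2-Eb1* (-1.07) were called lower with overlap. *H2-Aa*, *H2-Ab1*, *H2-DMa* and *H2-DMb1* were not called, with log2 fold changes from -0.77 to -0.41. On this scale 54.5% of all tested genes were called, so 6 of 10 is near the background.

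This scale rests largely on *Lyz2*, the lysozyme of myeloid cells, which held 89.2% of the summed macrophage counts on average and was itself at 6153 to 15352 CPM in vehicle and 15494 to 23285 CPM in HPβCD mice. Without *Lyz2*, an alternative added after the data were seen, *H2-Ob* alone was called (log2 fold change -2.15, adjusted p = 0.0423), at a background of 1.26%. *H2-Ab1*, *H2-DMa* and *H2-DMb1* then had small positive values (0.24, 0.11 and 0.10). Leaving out an animal changed how many of the 10 genes were called per macrophage marker count, and the share of all tested genes changed too. None of the 10 was called without vehicle animal 1, HPβCD animal 2 or HPβCD animal 4, where 0.0539%, 0.0133% and 0% of all tested genes were called. There was 1 without HPβCD animal 1 (0.691% of all tested genes), and there were 3 without vehicle animal 2 (50.9%) or HPβCD animal 3 (7.74%) and 7 without vehicle animal 3 (35.5%). In every one of these fits *H2-Ob*, *H2-DMb2* and *H2-Oa* had negative log2 fold changes.

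**Figure D3:**
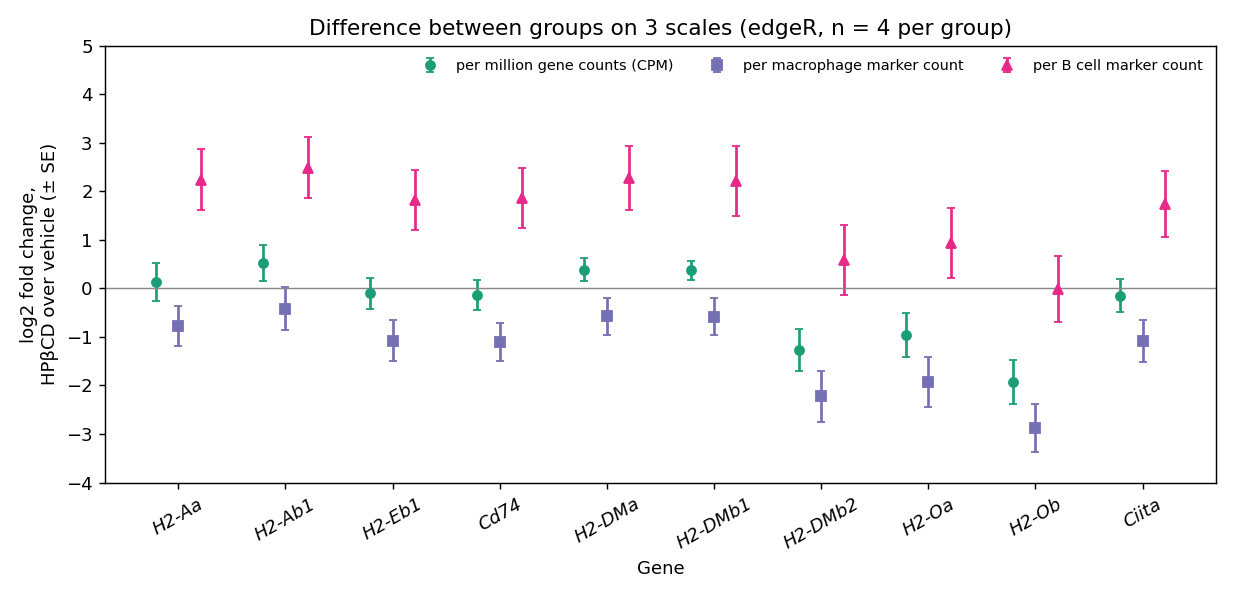
Log2 fold change of HPβCD over vehicle (± SE, edgeR, n = 4 per group) for each class II gene on 3 scales, per library total (CPM), per macrophage marker count and per B cell marker count. *H2-Ob* is at -1.92 on the CPM scale and at -0.01 per B cell marker count, while *H2-Ab1* is at 0.52 on the CPM scale and at 2.49 per B cell marker count.

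Relations across the 8 animals were computed for the 10 genes with 3 scores, 30 relations in all, as log2 CPM against score. The B cell score separated the groups, so no pooled correlation is given for it, and deviations from the group means were correlated instead (exact permutation within groups, two-sided). *H2-Ob* had r = 0.975 (p = 0.00174, adjusted over the 30 relations 0.0347). *H2-Oa* had r = 0.946 (p = 0.00347, adjusted 0.0347), *H2-DMb2* r = 0.945 (p = 0.00521, adjusted 0.0391) and *Ciita* r = 0.897 (p = 0.00868, adjusted 0.0434), each by the same exact test. The other 6 genes had r from 0.655 to 0.766, with exact p-values from 0.0573 to 0.099.

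Many genes follow the same animals, so these values were read against all tested genes. An r with the B cell score as high as that of *H2-Ob* was reached by 0.0543% of tested genes, as that of *H2-Oa* by 0.224%, as that of *H2-DMb2* by 0.238% and as that of *Ciita* by 0.672%. For the other 6 genes the share was 3.99% to 9.76%. The relation of those 6 depended on which animals were included. Without HPβCD animal 2, their r with the B cell score was 0.853 to 0.954 (exact p from 0.00694 to 0.0278). Without vehicle animal 3, their r with the B cell score ranged from 0.102 for *H2-Aa* to 0.524 for *H2-Eb1*, whereas *H2-Ob* kept r = 0.937, *H2-DMb2* 0.886, *H2-Oa* 0.870 and *Ciita* 0.764. With *Ciita* the exact p was then 0.0903.

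The macrophage score did not separate the groups, and Pearson's r over the 8 animals was highest for *H2-DMb1* (r = 0.791, permutation p = 0.0253, adjusted 0.0843; rho = 0.548, permutation p = 0.171, adjusted 0.366). It was 0.724 for *H2-DMa*, 0.629 for *H2-Ab1*, 0.626 for *H2-Aa*, 0.002 for *H2-DMb2* and -0.07 for *H2-Ob*. None of the 10 passed the adjustment. These pooled relations rested on vehicle animal 3 and HPβCD animal 3, the lowest and the highest macrophage score. Without them, r was between -0.51 and -0.06 for all 10 genes. In deviations from the group means, the measure used for the B cell score, r with the macrophage score was 0.535 to 0.716 over the 10 genes (exact p from 0.0781 to 0.234), with *H2-Ob* at 0.613, *H2-DMb2* at 0.555 and *H2-Oa* at 0.699. None of these passed the adjustment either. Over the 10 genes, an r of deviations as high was reached by 6.86% (*H2-DMb1*) to 18.3% (*H2-Ab1*) of tested genes.

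With the dendritic cell score, *Ciita* had r = 0.851 (permutation p = 0.00578, adjusted 0.0433) and rho = 0.905 (permutation p = 0.00456, adjusted 0.0456). *H2-DMb1* had r = 0.860 (permutation p = 0.00923, adjusted 0.0554) and rho = 0.714 (permutation p = 0.0576, adjusted 0.288). Without vehicle animal 3 and HPβCD animal 3, the pooled r was 0.634 for *Ciita* and 0.342 for *H2-DMb1*. The pooled relation of *H2-DMb1* thus rested on those animals, and that of *Ciita* became weaker. In deviations from the group means, r with the dendritic cell score was 0.936 for *Ciita* (exact p = 0.00868, adjusted 0.0434) and 0.926 for *H2-DMb1* (exact p = 0.00347, adjusted 0.0347). These were 0.866 and 0.847 without vehicle animal 3 (exact p = 0.0486 and 0.0417, unadjusted). Without HPβCD animal 3 they were 0.911 and 0.902 (exact p = 0.0347 and 0.0139, unadjusted). The other 8 genes had r from 0.782 to 0.871 and did not pass the adjustment, with *H2-Oa* at 0.871, *H2-DMb2* at 0.861 and *H2-Ob* at 0.822 (exact p = 0.026). Without vehicle animal 3, the r of these 8 was 0.455 (*H2-Aa*) to 0.722 (*H2-Oa*). An r of deviations as high as that of *Ciita* was reached by 0.339% of tested genes, and as that of *H2-DMb1* by 0.448%. For the other 8 genes the share was 1.73% (*H2-Oa*) to 5.33% (*H2-Aa*). For *Ciita* r with the dendritic cell score lies above its r with the B cell score (0.897), and the difference was not tested.

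**Figure D4:**
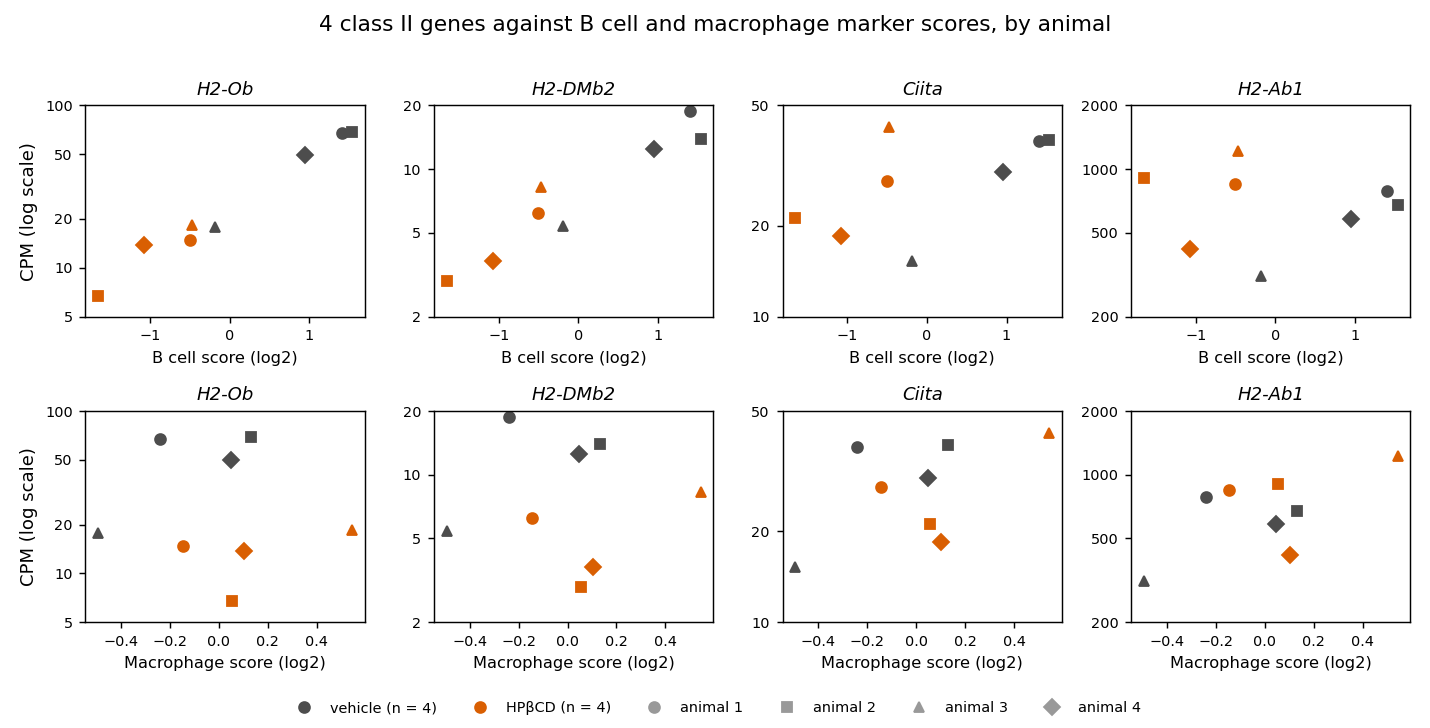
CPM (log scale) of *H2-Ob*, *H2-DMb2*, *Ciita* and *H2-Ab1* against the B cell score (top row) and the macrophage score (bottom row), 1 point per animal, colored by group. *H2-Ob* and *H2-DMb2* run higher with the B cell score in both groups, with vehicle animal 3 beside the HPβCD animals. *H2-Ab1* holds its highest value (1221 CPM) in HPβCD animal 3, which has the highest macrophage score (0.54). It is lowest of the HPβCD mice (417 CPM) in animal 4, whose macrophage score (0.10) comes next in that group.

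The genes with the most similar pattern were sought among 10926 genes that averaged 5 CPM or more, by Pearson's r of log2 CPM over the 8 libraries. The 5 nearest to *H2-Ob* were *Pax5* (r = 0.996), the transcription factor of B cell identity, *Bank1* (0.993), a B cell adaptor, *Chst3* (0.991), a sulfotransferase, *Fcrla* (0.990), a B cell Fc receptor-like protein, and *Gimap1* (0.989), a lymphocyte GTPase. *Pax5*, *Bank1* and *Fcrla* are also on the B cell list. All 5 had lower means in HPβCD mice (log2 fold changes -2.26 to -1.03), as *H2-Ob* did. Such a shared difference between the groups raises an r pooled over the 8 libraries. The 5 nearest to *H2-Ab1* were *H2-DMa* (0.980), *Sh3kbp1* (0.979), *C4b* (0.969), *Slc44a2* (0.961) and *Srebf1* (0.955), of which *C4b* encodes a complement component and *Srebf1* a regulator of lipid synthesis.

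The 5 nearest to *H2-DMa* were *C4b* (0.982), *Sh3kbp1* (0.982), *H2-Ab1* (0.980), *H2-Q4* (0.979), an MHC class I gene, and *Slc44a2* (0.964). *H2-Ab1* and *H2-DMa* were thus each among the other's nearest genes, and no B cell marker was among theirs. The 5 nearest to *Ciita* were *Dusp2* (0.966), *Plbd1* (0.956), *Traf1* (0.948), *Cxcr6* (0.946) and *Fcrl1* (0.945), which include a chemokine receptor of T cells and a Fc receptor-like gene of B cells. These correlations are over 8 libraries that share depth and tissue makeup, and are descriptions.

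*H2-Eb2*, the further class II β gene, had a pattern like that of *H2-Ob*. It was at 32.5, 40.6, 8.90 and 27.1 CPM in vehicle and at 7.99, 6.07, 9.23 and 7.88 CPM in HPβCD mice. Vehicle animal 3 again fell among the HPβCD animals. Its log2 fold change was -1.81 ± 0.41 (adjusted p = 0.0581, edgeR, n = 4 per group).

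Other steps of the pathway were described from fixed lists. None of the 9 genes for transcription of class II genes was called, with 5 higher and 4 lower means in HPβCD mice and a median log2 fold change of 0.02. Its 3 most abundant members were *Creb1* (-0.26), *Irf8* (0.25), a factor of myeloid and B cells, and *Nfya* (0.31), a subunit of the factor that binds the Y box. *Nfyb*, another subunit of that factor and named after its values were seen, was at -0.76 (adjusted p = 0.0801, edgeR, n = 4 per group), with the groups not overlapping. On the route from interferon γ to *Ciita*, 7 of 8 genes were tested and none was called (median 0.12), with *Jak1* at 0.12, *Ifngr1* at 0.10 and *Jak2* at -0.19. *Ifng* itself had 1 to 21 counts per library and did not pass the filter on low counts.

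For processing and turnover, which holds the cathepsins that cut CD74 and antigens, 9 of 10 genes had higher means in HPβCD mice and none was called. The median log2 fold change was 0.56. *Ctsd* (0.98, adjusted p = 0.0774), *Ctsb* (0.85, adjusted p = 0.0829) and *Ctss* (0.95, adjusted p = 0.0698) were the most abundant (edgeR, n = 4 per group). *Ctss*, the cathepsin best known for the last cut of CD74, was at 1683 to 2139.9 CPM in vehicle and 2784 to 5476 CPM in HPβCD mice, without overlap.

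Of 6 costimulatory genes, *Cd80*, a ligand of CD28 on T cells, was called higher in HPβCD mice. It was at 9.39, 15.5, 7.87 and 20.01 CPM in vehicle and at 31.1, 36.7, 43.3 and 32.6 CPM in HPβCD mice, without overlap. Its log2 fold change was 1.44 ± 0.30 (adjusted p = 0.0499, edgeR, n = 4 per group). *Cd274* (0.18), *Cd86* (-0.47) and *Icosl* (-0.54), the most abundant of the list, were not called. Neither receptor of class II was called, with *Cd4* at 0.49 (adjusted p = 0.0949) and *Lag3* at -0.38 (adjusted p = 0.750). The ligand and partners of CD74 were not called either (*Cd44* 0.07, *Cxcr4* 0.28 and *Mif* 0.29).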

How the data were processed

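RNA from 8 infarcts was sequenced by the authors as strand-marked, polyadenylated, paired-end libraries. They demultiplexed with bcl2fastq 2.19, trimmed with Trimmomatic 0.32, aligned to GRCm38 with STAR 2.5.2b and counted with htseq-count, whose version, annotation release and strand option are not given in the sources used here. The deposited values are raw counts per gene, 1 table per animal. Lines for unassigned reads (26.6% to 36.6%) were left out. Genes with near-identical copies are undercounted, because alignments to several places were not assigned. Symbols matched 45143 of 46078 identifiers, and coordinates are GENCODE M21 on GRCm38.

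Groups and animal numbers came from the labels, which name no batch. Counts were tested with edgeR 4.0.16 in R 4.3.3 (robust quasi-likelihood F test, TMM, filterByExpr, no covariate), with Benjamini-Hochberg adjustment over 14736 genes and a threshold of 0.05. SEs come from the fold change and its F. The study used DESeq2, run here as an alternative (1.42.0). CPM is scaled by TMM, with a prior count of 2 on the log2 scale. For content scales, library factors were replaced by summed marker counts. Scores were compared over all 70 assignments of 4 and 4 animals. Procedures were tested on simulated data. The members and lists were chosen with earlier results of these data known. Named are all 10 members; called genes of each pathway list, or its 3 most abundant where fewer than 3 were called; the 3 most abundant of a marker list (1 of them is not reported here); and the 5 genes nearest in pattern to *H2-Ab1*, *H2-DMa*, *H2-Ob* and *Ciita*, leaving out immunoglobulin and T cell receptor segments and predicted genes. Genes named beyond this rule (*Cd79a*, *Cd79b*, *Blk*, *Fcer2a*, *Nfyb* and the pairs used for ratios) were chosen after their values were seen. Same-numbered animals of the groups did not deviate together in every pair (r = -0.257, 0.244, 0.329 and 0.097), so the numbers were taken as names only. Libraries differed by more than sampling noise (lowest chi-square per degree of freedom 19.4), and all were kept as separate animals.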

Additional observations from a re-analysis of the deposited data

Results flagged for a closer look

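Over 43 measures in the 2 groups, 86 groups of 4 animals were searched for an animal far from the others, and chance alone would give about 4.3. There were 2. *H2-Aa* in vehicle animal 3 was at a log2 CPM of 9.60, against 11.29 to 11.50 in the other 3 vehicle animals. *H2-Aa* per macrophage marker count in HPβCD animal 4 was at -3.92 on the log2 scale, against -2.87 to -2.69 in the other 3 HPβCD animals. This is fewer than chance gives.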

How the results depend on the processing

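Across alternatives, *H2-Ob*, *H2-DMb2* and *H2-Oa* had negative log2 fold changes on the CPM scale in every fit run, and the B cell score stayed lower in HPβCD mice (-2.22 to -1.61 with an animal left out, -1.93 with library totals alone, -1.65 with *Cd22*). The number of class II genes called was 0 by edgeR, 2 by DESeq2 and 1 without vehicle animals 1 and 3, and 0 to 2 with an animal left out. Over all genes, edgeR called 287, DESeq2 2911, edgeR with library totals alone 11, with the neuron score as a covariate 2, and 0 to 629 with an animal left out. With the animal number as a replicate block, edgeR called 9 genes and no class II gene, and 2 class II genes instead of 7 per B cell marker count, where it called 12.4% of all genes. Same-numbered animals share only a number. Genes near 0 changed sign. *H2-Aa* was at -0.065 without vehicle animals 1 and 3, at -0.19 with the neuron score, and at -0.15 to 0.31 with an animal left out. On leaving out an animal, *H2-Eb1* ranged from -0.33 to 0.081, *Cd74* from -0.34 to 0.081 and *Ciita* from -0.43 to 0.0068. Per macrophage marker count, 6 class II genes were called, 3 without vehicle animals 1 and 3 (13.4% of all genes) and 1 without *Lyz2* in the denominator (1.26%). There were 7 with the microglia, border and foamy lists as the denominator (70.9%), and 0 to 7 with an animal left out (0% to 79.1%). Without *Lyz2*, *H2-Ab1* was at 0.24, *H2-DMa* at 0.11 and *H2-DMb1* at 0.10, and with an animal left out *H2-Ab1* was at -0.64 to 0.00074. Per B cell marker count, 3 to 7 class II genes were called with an animal left out, where 16.4% to 90.4% of all genes were called. *H2-Ob* was then at -0.067 to 0.076, and *H2-DMb2* was at -0.055 with *Cd22* in the denominator. Of the 30 relations with scores, 6 passed adjustment in deviations from group means, and 0 to 5 with an animal left out, where 7 animals allow no p under 0.00694. Apart from the construction of the alternatives (fewer animals, other denominators), the cause was not tested. Genes with few counts, such as *H2-DMb2* and *H2-Oa*, limit what 4 animals per group can show.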
